A study of Homo sapiens with 6 samples.

Results

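The genes described here are 10 components of the Notch pathway, picked by symbol from the expression table of 63009 genes. They are the receptors NOTCH1, NOTCH2 and NOTCH3, the ligands JAG1, JAG2 and DLL1, and the target genes HES1, HEY1, HEYL and NRARP. Notch receptors sit at the cell surface and are activated by Jagged or Delta ligands on a neighboring cell. Ligand binding leads to cleavage of the receptor by an ADAM protease and then by γ-secretase, and the released intracellular part enters the nucleus and joins the DNA-binding protein RBPJ and a Mastermind coactivator (MAML) to switch on genes such as those of the HES and HEY repressors. In fibroblasts undergoing Ras-induced senescence, NOTCH1 is known as a regulator of the secreted factors.

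RNA was measured in ERRAS cells, IMR90 primary human lung fibroblasts that carry a retroviral H-RasV12 fused to the estrogen receptor ligand-binding domain, so that Ras signaling starts when tamoxifen is added. The control group (n = 3 libraries) was left uninduced, and the Ras-induced group (n = 3 libraries) was induced for 4 days, with 100 nM tamoxifen according to the sample labels, whereas the study's methods state the dose of 4-hydroxytamoxifen by mass. Both groups carried the construct and were held in mitosis by DME, which blocks the motor protein Eg5, at 1 μM, and only detached mitotic cells were collected. The comparison is therefore one of induction and not of the arrest. Only the Ras-induced group received tamoxifen, so effects of the drug itself and of Ras cannot be told apart. Values are FPKM, fragments scaled by transcript length and by the fragments mapped in the library, so levels of different genes can be compared. A fall in RNA per cell cannot be told apart from a smaller share of expressing cells in such bulk samples.

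HRAS measured between 1140 and 1176 FPKM in control and between 1439 and 1847 FPKM in Ras-induced libraries, and its reads may come from the endogenous gene or the construct. Of 10 genes known as targets of the Ras effector ERK, 7 were higher and 1, FOSL1, was lower after induction (limma, adjusted p at or under 0.05), where 11.0% of all tested genes were higher and 5.67% lower. DUSP4, among the 7, reached the filter of a mean of 1 FPKM only through its Ras-induced values (mean 0.225 FPKM in control and 2.86 FPKM in Ras-induced libraries). All 7 fibroblast markers lay above 40 FPKM in every library, and 3 of them were called lower, as were 3 of 7 mitotic genes. COL1A1 and COL3A1 narrowly missed the threshold (adjusted p = 0.0501 and 0.0553 from limma). Their means went from 1345 to 550 and from 253 to 114 FPKM, without overlap. Of the 7 fibroblast differences, 6 were negative and 1 was positive. The endothelial markers PECAM1, CDH5, KDR and VWF stayed under 0.1 FPKM in every library, whereas TIE1, the only one tested, rose from 1.37 ± 0.865 (SD, n = 3) to 4.5 ± 1.52 FPKM (SD, n = 3) and was called higher (log2 difference 1.24, adjusted p = 0.045 from limma). The 4 leukocyte markers stayed under 0.5 FPKM. Of the 5 epithelial markers, the keratins KRT8 and KRT18 measured 8.87 to 13.3 and 45.1 to 58.7 FPKM, and none of the 3 tested was altered. EPCAM, under the filter, measured 1.24 ± 0.487 (SD, n = 3) before induction and 0.288 ± 0.129 FPKM (SD, n = 3) after it, without overlap. The part of these markers in the Notch values was not tested. Read counts and alignment statistics were not used here, and FPKM alone does not give the depth, but the step between low FPKM values put the libraries within 0.848 to 1.17 times the depth of the first control library.

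Of the 10 Notch genes, 6 had a mean of at least 1 FPKM over all libraries and were tested, and the other 4 (JAG2, DLL1, HEYL and NRARP) stayed under 1 FPKM in every library. The targets HES1 and HEY1 were higher in Ras-induced libraries, and the receptor NOTCH1 was higher by a smaller amount. NOTCH2, NOTCH3 and JAG1 did not pass the test. The test was limma on log2(FPKM + 1) across the 13993 genes averaging 1 FPKM or more, two-sided, with Benjamini-Hochberg adjustment, and a gene is called altered at an adjusted p at or under 0.05. Thus 3 of 6 tested Notch genes were altered, all higher, where 16.7% of all tested genes were altered and 11.0% were altered and higher. None was lower, where 5.67% of all tested genes were, and none was lower at an unadjusted p under 0.05 from limma in this fit, where 10.7% of all tested genes were. At that unadjusted level NOTCH2 was lower after quantile and upper quartile scaling, where 15.5% and 15.7% of all genes were, and without Ras-induced library 3, where 8.41% were. NOTCH3 was lower without control 3, where 11.4% were. Both were lower with the replicate number as a block and without both libraries numbered 3, where 11.8% and 9.41% were. The split of all altered genes depended on scaling, with 7.46% higher and 7.93% lower after quantile normalization and 6.58% higher and 7.87% lower after upper quartile scaling. With 6 genes, these shares describe the list and carry no test, and HEY1 is among the 6 only through its Ras-induced values, its control mean being under 1 FPKM. Requiring a log2 difference of at least 1 as well left HES1 and HEY1, where 3.92% of all tested genes remained. Quantile normalization also left these 2, where 15.4% of all genes were altered, and testing without a filter left 0 of 10 Notch genes, where 5.17% were. At an unadjusted p under 0.05 from limma 3 were then higher, where 12.9% of all genes were, and none lower, where 6.91% were. With the replicate number as a block 3 were altered, HES1, HEY1 and NOTCH2, where 16.5% of all genes were. The median difference of the 6 genes was 0.33 on the log2(FPKM + 1) scale, against 0.10 for all tested genes.

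**Figure D1:**
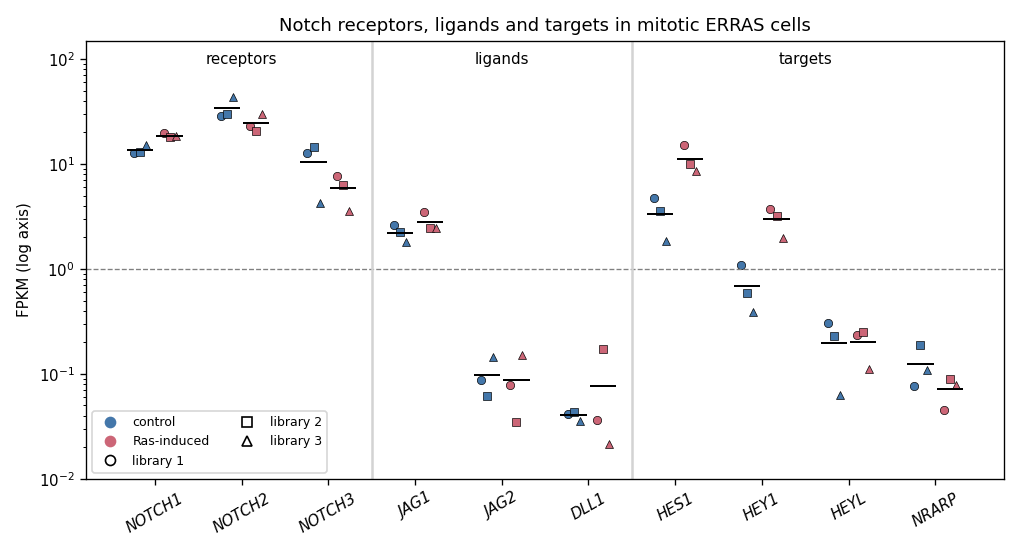
FPKM of the 10 Notch genes (log axis) in each control (blue) and Ras-induced (red) library. Circles, squares and triangles are the libraries numbered 1, 2 and 3, short bars are group means and the dashed line marks 1 FPKM. HES1 runs from 1.83 to 4.72 FPKM in control and from 8.57 to 15.2 FPKM in Ras-induced cells, whereas JAG2, DLL1, HEYL and NRARP stay under the line.

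Among receptors, NOTCH1 (ENSG00000148400, chromosome 9 of GRCh37 from 139388885 to 139440500, minus strand) is the receptor named above for its part in senescence. It measured 12.8, 12.9 and 15.3 FPKM in control libraries and 19.6, 17.9 and 18.3 FPKM in Ras-induced libraries. Every Ras-induced value lay above every control value. The means were 13.7 ± 1.40 (SD, n = 3) and 18.6 ± 0.868 FPKM (SD, n = 3), a ratio of 1.36. The log2 difference was 0.42 (standard error 0.10, 95% interval 0.19 to 0.66, adjusted p = 0.0328 from limma). This call depended on how the libraries were scaled. After quantile normalization, which brings the median difference of all genes to 0.01, the NOTCH1 difference was 0.33 (adjusted p = 0.0773 from limma), and with libraries matched at their upper quartile 0.32 (adjusted p = 0.102). It was also lost when any single library other than the third control was left out, with adjusted p-values between 0.069 and 0.115.

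NOTCH2 (ENSG00000134250, chromosome 1 of GRCh37 from 120454176 to 120643366, minus strand) was the most abundant of the 10 genes in every library. Its control values were 28.4, 30.1 and 43.1 FPKM and its Ras-induced values 23.2, 20.5 and 30.02 FPKM. The groups overlapped, because the third Ras-induced library fell within the control range. The log2 difference was -0.44 (95% interval -0.91 to 0.03, adjusted p = 0.172 from limma), and -0.26 without control 3. With the replicate number as a block, NOTCH2 passed the test as lower (adjusted p = 0.037 from limma). Part of NOTCH2 is duplicated in NOTCH2NL, to which reads could be assigned instead. NOTCH2NL measured 14.4 ± 1.21 (SD, n = 3) before induction and 18.7 ± 1.79 FPKM (SD, n = 3) after it, without overlap. These values do not show how many reads went to the wrong gene, which was not tested. The values of both genes are therefore uncertain.

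NOTCH3 (ENSG00000074181, chromosome 19 of GRCh37 from 15269849 to 15311806, minus strand), a receptor known from vascular smooth muscle and other mural cells, was the receptor with the widest spread relative to its mean. It measured 12.9, 14.4 and 4.23 FPKM in control libraries and 7.77, 6.30 and 3.57 FPKM in Ras-induced libraries. In each group the library numbered 3 was the lowest. The log2 difference was -0.64 (95% interval -1.72 to 0.43, adjusted p = 0.364 from limma). It was -1.14 without the control numbered 3 (adjusted p = 0.0715), and -0.43, -0.36 and -0.38 without control 1, control 2 and Ras-induced library 3. With the replicate number as a block the standard error was 0.19 in place of 0.45, and NOTCH3 did not pass (adjusted p = 0.0823 from limma). NOTCH4, outside the 10 genes, lay between 0.492 and 1.14 FPKM.

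The make-up of the receptor pool can be read within each library, where scaling between libraries has no effect. This measure was chosen after the values were seen. NOTCH1 made up 23.6%, 22.5% and 24.4% of the summed NOTCH1, NOTCH2 and NOTCH3 FPKM in control libraries and 38.7%, 40.1% and 35.3% in Ras-induced libraries. The groups did not overlap (exact permutation test, two-sided, p = 0.1, the smallest that 3 libraries against 3 allow). The ratio of NOTCH1 to NOTCH2 was 0.411 ± 0.0499 (SD, n = 3) before induction and 0.776 ± 0.145 (SD, n = 3) after it, again without overlap (exact permutation p = 0.1). Like the shares, this ratio was chosen after the values were seen, so the lack of overlap is a description and carries no test. The uncertainty of NOTCH2 from NOTCH2NL applies to the shares and the ratio as well. The summed FPKM of the 3 receptors was 58.0 ± 4.28 (SD, n = 3) before induction and 49.1 ± 3.82 (SD, n = 3) after it.

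**Figure D2:**
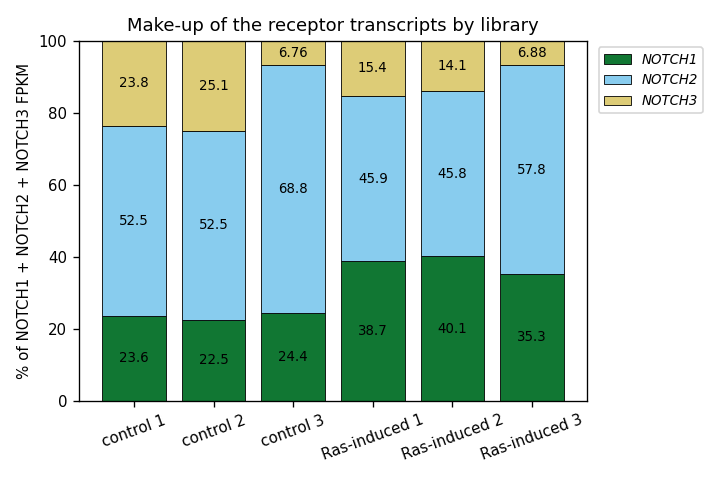
Percent of the summed FPKM of NOTCH1, NOTCH2 and NOTCH3 contributed by each receptor, with 1 bar for each library. NOTCH1 contributes 22.5 to 24.4% in control and 35.3 to 40.1% in Ras-induced libraries, and NOTCH3 contributes least in both libraries numbered 3 (6.76% and 6.88%).

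Ligand transcripts were scarce. JAG1 (ENSG00000101384, chromosome 20 of GRCh37 from 10618332 to 10654647), a Jagged ligand, measured 2.61, 2.23 and 1.80 FPKM in control and 3.47, 2.48 and 2.45 FPKM in Ras-induced libraries. The groups overlapped, and the log2 difference of 0.24 did not pass the test (95% interval -0.19 to 0.66, adjusted p = 0.397 from limma). It was 0.14 without control 3 and 0.11 without Ras-induced library 1. JAG2, the other Jagged ligand, lay between 0.0348 and 0.152 FPKM. DLL1, a Delta ligand, lay between 0.0213 and 0.171 FPKM, and it overlaps FAM120B on the opposite strand, which measured 10.5 to 14.3 FPKM. Whether strand was used in the authors' quantification is not given in the sources used here, so the low DLL1 values are uncertain.

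A ligand outside the 10 genes exceeded JAG1 in each control library. DLL4, a Delta ligand best known from endothelial cells, measured 7.44, 6.89 and 2.25 FPKM in control libraries and 4.10, 3.67 and 1.21 FPKM in Ras-induced libraries. Each library numbered 3 was again the lowest of its group, and the groups overlapped. The log2 difference was -0.68 (95% interval -1.79 to 0.44, adjusted p = 0.357 from limma), and it was -1.12 without control 3 and -0.43 and -0.30 without control 1 and Ras-induced library 3. With the replicate number as a block, DLL4 passed the test as lower (-0.68, standard error 0.13, adjusted p = 0.032 from limma). The labels do not say whether libraries of the same number belong together. The endothelial markers PECAM1 and CDH5 were listed at 0 in at least 5 of the same 6 libraries, and the 5 endothelial markers summed to 0.905 to 2.43 FPKM in control and 2.93 to 5.85 FPKM in Ras-induced libraries, with TIE1 the largest term in each library. DLL3, which lay between 0.0347 and 0.266 FPKM, and the atypical ligands DLK1, at no more than 0.769 FPKM, and DLK2, at no more than 0.214 FPKM, were near the floor.

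The largest differences were those of the target genes. HES1 (ENSG00000114315, chromosome 3 of GRCh37 from 193853937 to 193856521, plus strand) encodes a basic helix-loop-helix repressor and is the standard readout of Notch activity, although growth factor signals can also raise it. It measured 4.72, 3.57 and 1.83 FPKM in control libraries and 15.2, 9.95 and 8.57 FPKM in Ras-induced libraries. The lowest Ras-induced value exceeded the highest control value, and in both groups library 3 was the lowest. The means were 3.37 ± 1.46 (SD, n = 3) and 11.3 ± 3.53 FPKM (SD, n = 3), a ratio of 3.34. The log2 difference was 1.51 (standard error 0.31, 95% interval 0.78 to 2.24, adjusted p = 0.0218 from limma). It stayed between 1.22 and 1.73 when any single library was left out, but the adjusted p was then 0.0819 without the second control, and 0.0782, 0.0661 and 0.0607 without the Ras-induced library numbered 1, 2 and 3, respectively.

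HEY1 (ENSG00000164683), a related repressor of the Hairy/enhancer-of-split family with a YRPW-type motif, started lower. It measured 1.09, 0.586 and 0.387 FPKM in control libraries and 3.75, 3.19 and 1.99 FPKM in Ras-induced libraries, without overlap. The means were 0.686 ± 0.360 (SD, n = 3) and 2.98 ± 0.902 FPKM (SD, n = 3), a ratio of 4.34. The log2 difference was 1.23 (standard error 0.25, 95% interval 0.63 to 1.84, adjusted p = 0.0229 from limma). Because its control mean is under 1 FPKM, HEY1 reached the filter only through the Ras-induced group. With the filter lowered to a mean of 0.1 FPKM, which both groups exceed, the adjusted p was 0.0254, and without a filter it was 0.06 (limma). The pseudocount of 1 compresses a change at this level, and with a pseudocount of 0.1 the difference was 2.02. Leaving out the control numbered 2 or 3 gave an adjusted p of 0.0772 or 0.056, and leaving out the first or second Ras-induced library gave 0.0687 or 0.0658, with differences of 1.09 to 1.2 in these 4 fits. Of all tested genes, 39.9% had groups that did not overlap, and of the 6 tested Notch genes HES1, HEY1 and NOTCH1 did.

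The other targets were close to the floor in both groups. HEYL, another repressor of the HEY family, measured 0.304, 0.230 and 0.0624 FPKM in control and 0.237, 0.252 and 0.110 FPKM in Ras-induced libraries. NRARP, a feedback inhibitor that binds the Notch transcription complex, measured 0.0763, 0.187 and 0.108 FPKM in control and 0.0450, 0.0898 and 0.0783 FPKM in Ras-induced libraries. Groups overlapped for both genes. Fitted without a filter on low values, the log2 difference was 0.00 for HEYL (95% interval -0.23 to 0.24) and -0.07 for NRARP (95% interval -0.18 to 0.04), and neither passed the test (adjusted p = 0.992 and 0.481 from limma). A log2(FPKM + 1) scale shows little of any change at such levels.

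In absolute level, HES1 changed its place among the 10 genes. In controls the order was NOTCH2, NOTCH1, NOTCH3, HES1, JAG1 and HEY1, and neighbors from NOTCH1 to JAG1 overlapped in range. In Ras-induced cells the order was NOTCH2, NOTCH1, HES1, NOTCH3, HEY1 and JAG1. There every HES1 value exceeded every NOTCH3 value (highest 7.77 FPKM), while HEY1 overlapped both NOTCH3 and JAG1.

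Of the paralogs of these repressors, HES4, outside the 10 genes, was the most abundant HES transcript in controls, at 12.2, 9.18 and 3.65 FPKM, and measured 3.59, 6.64 and 1.74 FPKM in Ras-induced libraries. The groups overlapped and the log2 difference was -0.90 (95% interval -2.08 to 0.27, adjusted p = 0.250 from limma), with -0.59 and -0.53 without control 1 and Ras-induced library 3. Within libraries, the ratio of HES1 to HES4 was 0.386, 0.389 and 0.502 in control and 4.25, 1.5 and 4.94 in Ras-induced cells, without overlap (exact permutation p = 0.1). This ratio was also chosen after the values were seen, so its lack of overlap is a description and carries no test. HES7 measured 0.590, 1.46 and 0.585 FPKM in control and 2.28, 1.58 and 1.96 FPKM in Ras-induced libraries, a log2 difference of 0.67 (95% interval 0.10 to 1.24) that did not pass the test (adjusted p = 0.104 from limma), although its groups did not overlap and lay in the same order as those of HES1. It passed without control 2 (0.88, adjusted p = 0.0442 from limma), and with a pseudocount of 0.1 the difference was 1.16 and did not pass (adjusted p = 0.0997). Like HEY1, HES7 reached the filter only through its Ras-induced values. HES6 lay between 1.69 and 3.14 FPKM, and its difference of -0.34 did not pass either (adjusted p = 0.230 from limma). HES2 lay at or under 0.311 FPKM, HES5 and HEY2 were listed at 0 in at least 4 of the 6 libraries, and HES3 was listed at 0 in all of them.

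The sequences upstream of HES1, HEYL and HES4 are shown because all 3 share letters that RBPJ is known to bind. They are the 250 bases before the start site, 5′ to 3′ on the gene's strand, from RefSeq on GRCh38.p14, at chr3:194135898-194136147 (plus strand) for HES1, chr1:39639644-39639893 (minus strand) for HEYL and chr1:1000098-1000347 (minus strand) for HES4. Capitals mark GTGGGAA or the TGGGAA within it, searched on both strands, and TTCCCAC is the first of these on the opposite strand. HES4 and the shorter letters were added after values and windows had been seen.
HES1: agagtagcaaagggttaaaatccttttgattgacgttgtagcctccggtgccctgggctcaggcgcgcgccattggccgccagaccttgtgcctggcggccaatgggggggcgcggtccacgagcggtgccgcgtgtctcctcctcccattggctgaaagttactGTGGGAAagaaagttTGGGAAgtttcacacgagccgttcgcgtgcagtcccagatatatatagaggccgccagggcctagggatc
HEYL: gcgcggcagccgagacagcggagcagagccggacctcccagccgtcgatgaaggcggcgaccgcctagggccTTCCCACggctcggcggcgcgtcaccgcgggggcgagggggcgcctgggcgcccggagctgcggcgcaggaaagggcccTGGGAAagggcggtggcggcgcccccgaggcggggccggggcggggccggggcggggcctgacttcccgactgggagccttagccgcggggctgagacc
HES4: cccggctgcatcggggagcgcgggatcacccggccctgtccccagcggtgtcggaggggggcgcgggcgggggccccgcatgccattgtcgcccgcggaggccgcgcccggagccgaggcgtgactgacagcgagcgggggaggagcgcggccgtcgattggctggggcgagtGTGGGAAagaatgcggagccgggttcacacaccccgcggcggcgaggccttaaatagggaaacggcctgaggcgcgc
HES1 held GTGGGAA from -85 to -79 and a further TGGGAA from -70 to -65, counted from the start site. HES4 held GTGGGAA from -77 to -71, and HEYL held it on the opposite strand from -178 to -172, with a further TGGGAA from -99 to -94. Of 34943 such windows in the RefSeq table, 5.41% held GTGGGAA and 20.9% held TGGGAA on either strand. Neither run of letters was found in the windows of NOTCH1, NOTCH2, NOTCH3, JAG1, JAG2 or NRARP. HEY1 and DLL1 had no entry. These matches are a description of the letters and do not show binding.

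Beyond the 10 genes, 60 symbols of the wider pathway were listed by role, of which 59 were found in the table and 45 were tested. Of these 45, 5 were altered, all higher (11.1%, where 16.7% of all tested genes were altered and 11.0% altered and higher). The share altered and higher was near that of all tested genes. None was lower, although 2, POFUT1 and TLE4, were lower and 10 higher at an unadjusted p under 0.05 from limma. Of all tested genes, 10.7% were lower and 22.9% higher at that level. After quantile normalization 8 were lower and 8 higher, where 15.5% and 16.4% of all genes were, and after upper quartile scaling 7 and 8, where 15.7% and 14.8% were. POFUT1, TLE4, MAML1, MAML2, RBPJ and FAM120B are named after their values were seen. The median difference was 0.03. The altered genes belonged to receptor cleavage (2 of 9 tested), the nuclear coactivator complex (2 of 9) and receptor turnover (1 of 7). No gene was altered among 11 tested co-repressors, 3 glycosylation genes or 2 genes of ligand endocytosis.

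MAML3, a Mastermind coactivator, measured 0.901, 1.03 and 1.06 FPKM in control and 4.04, 3.09 and 3.51 FPKM in Ras-induced libraries, a log2 difference of 1.18 (standard error 0.15, adjusted p = 0.00602 from limma). Its control mean of 0.997 FPKM was just under the filter, which it passed through the Ras-induced group, and without a filter the adjusted p was 0.0214. Its relatives MAML1 and MAML2 did not pass the test, with differences of -0.04 and 0.03. NUMB, an adaptor that targets Notch receptors for endocytosis and opposes their signaling, measured 54.6, 50.5 and 47.6 FPKM in control and 96.9, 82.2 and 101.1 FPKM in Ras-induced libraries, a log2 difference of 0.86 (standard error 0.10, adjusted p = 0.0048 from limma). Both calls held without any single library.

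The remaining altered genes had smaller differences, of 0.48, 0.51 and 0.54 on the log2 scale for FURIN, PSENEN and KAT2A. FURIN, the protease that cuts the Notch precursor, went from 44.8 ± 5.5 (SD, n = 3) to 62.6 ± 5.12 FPKM (SD, n = 3), with an adjusted p of 0.0365 from limma. PSENEN, a γ-secretase subunit, went from 44.8 ± 3.17 (SD, n = 3) to 64.7 ± 8.56 FPKM (SD, n = 3), with an adjusted p of 0.0282. KAT2A, a histone acetyltransferase, went from 10.1 ± 1.73 (SD, n = 3) to 15.0 ± 0.955 FPKM (SD, n = 3), with an adjusted p of 0.0409. After quantile normalization their differences were 0.38, 0.41 and 0.43 and none passed the test (adjusted p = 0.0538, 0.0566 and 0.0977 from limma), and without single libraries their adjusted p rose to 0.111, 0.1 and 0.115 at most. RBPJ itself measured 39.8 ± 4.83 (SD, n = 3) before induction and 48.8 ± 6.85 FPKM (SD, n = 3) after it and did not pass the test (adjusted p = 0.192 from limma).

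**Figure D3:**
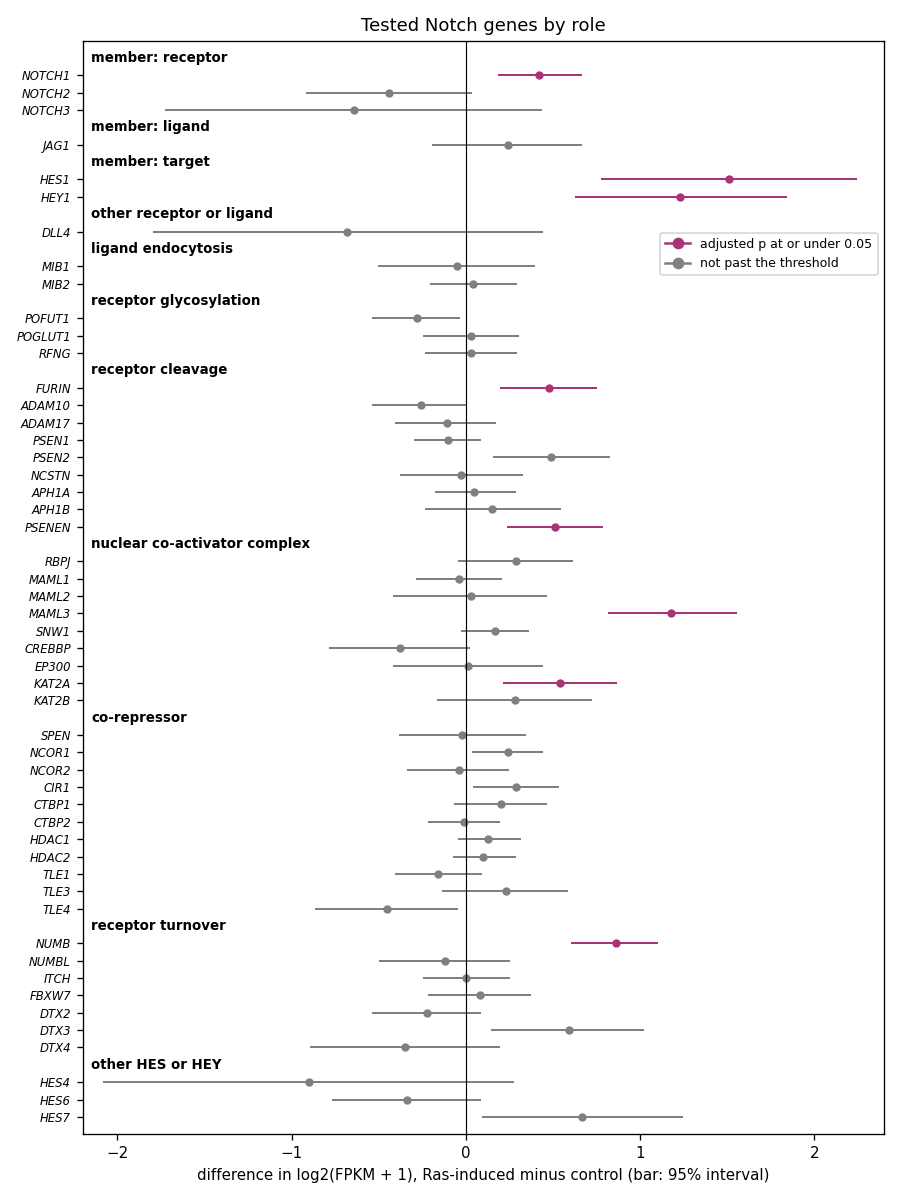
Difference in log2(FPKM + 1), Ras-induced minus control, for the 6 tested members and 45 tested pathway genes grouped by role. Points are estimates from limma, bars 95% intervals, and purple marks an adjusted p at or under 0.05. HES1 (1.51), HEY1 (1.23) and MAML3 (1.18) lie farthest to the right, and all purple points are right of 0.

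Several Notch genes also varied between libraries of the same group. The library numbered 3 was the lowest of both groups for NOTCH3, JAG1, HES1 and HEY1 among the 6 tested genes, and for DLL1 and HEYL among those under 1 FPKM. The same held for DLL4 and HES4. For NOTCH2 the libraries numbered 3 were the highest of both groups. Of all tested genes, 18.5% were lowest in both libraries numbered 3, and of the 45 tested pathway genes 10 (22.2%) were. Without both of these libraries, the differences of HES1, HEY1 and NOTCH1 were 1.38, 1.29 and 0.51, and none passed the test with 2 libraries against 2 (adjusted p = 0.0884, 0.0629 and 0.0879 from limma), where 2.86% of all tested genes did.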

How the data were processed

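Poly(A) RNA of 6 libraries of mitotic ERRAS cells was sequenced. The submitters' notes name Trim Galore 0.3.0, TopHat2, Cufflinks and Cuffdiff on hg19, with Ensembl junctions. The authors deposited FPKM from Cufflinks for each gene and library, and no scaling between libraries is stated in the sources used here. Column names give the group and a number but not the sample. A second header line and 18 unnamed columns were not used, and 120 genes with more than 6 values were left out. A table of the authors' group means, fold changes and tests was not used.

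The row of highest mean FPKM was taken where a symbol was repeated. FPKM is not a count, so limma 3.58.1 (eBayes with trend, R 4.3.3) was run on log2(FPKM + 1) for genes averaging 1 FPKM or more. Single values were compared by exact permutation over the 20 labelings in scipy 1.17.1. On simulated data for this comparison over 13993 genes, 68 of 100 genes changed by 1 log2 unit and 97 of 100 changed by 2 were called, and 3.51% of calls were false. The simulated libraries varied independently and few genes were changed, whereas 16.7% of all tested genes were altered in the data. These rates therefore need not hold for the real comparison. The study states that the experiment was repeated independently, but not which libraries belong to which repeat. Named genes were all members, every receptor, ligand, HES or HEY paralog, and every altered gene of the pathway list. Members and lists were chosen with earlier results of these data known. Coordinates are from GENCODE 44 lifted to GRCh37, the build of hg19. Alternatives tried were a pseudocount or filter of 0.1, no filter, quantile and upper quartile scaling, no variance trend, the replicate number as a block, each library left out, a log2 difference of at least 1 and, added after seeing the data, both libraries numbered 3 left out.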

Additional observations from a re-analysis of the deposited data

How the results depend on the processing

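No difference of a tested Notch gene reversed its direction under the 14 alternatives tried for each, and NOTCH3 and JAG1 stayed on their side of the threshold in all of them. Without a filter on low values, which raises the number of genes tested to 29362, NOTCH1, HES1 and HEY1 kept differences of 0.42, 1.51 and 1.23 and 0 Notch genes were altered by limma, with 2 other pathway genes, where 5.17% of all genes were. At an unadjusted p under 0.05, 3 Notch genes were higher, where 12.9% of all genes were. Quantile normalization and upper quartile scaling took the NOTCH1 difference to 0.33 and 0.32 and left 2 altered pathway genes each, where 15.4% and 14.5% of all tested genes were altered. Without both libraries numbered 3 the differences were 0.51, 1.38 and 1.29, with 0 altered Notch and 0 altered pathway genes by limma, where 2.86% of all tested genes were altered. At an unadjusted p under 0.05, 3 Notch and 6 pathway genes were then higher and 2 (NOTCH2 and NOTCH3) and 3 (DLL4, HES4 and HES6) lower, where 16.8% of all tested genes were higher and 9.41% lower. Limma without a variance trend called 3 pathway genes, where 14.4% of all genes were altered. Requiring a log2 difference of at least 1 left 1 pathway gene, MAML3, where 3.92% of all tested genes remained. Over the fits that left out a single library, differences ranged from 0.38 to 0.50 for NOTCH1, -0.59 to -0.26 for NOTCH2, -1.14 to -0.36 for NOTCH3, 0.11 to 0.32 for JAG1, 1.22 to 1.73 for HES1 and 1.09 to 1.43 for HEY1. The number of Notch genes altered and higher ranged from 0 to 2 in these fits, and that of pathway genes from 2 to 3 higher and 0 to 1 lower, where 3.71 to 8.3% of all genes tested in the same fits were altered and higher and 2.39 to 5.07% altered and lower. The cause of these changes was not tested.

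The sample labels do not pair the libraries, and deviations of libraries with the same number correlated at -0.003, 0.043 and 0.048 across genes, so the numbers were not taken as pairs. Correlations over all genes cannot decide whether single genes vary by pair. With the block, the standard error went from 0.47 to 0.13 for DLL4, 0.45 to 0.19 for NOTCH3 and 0.20 to 0.09 for NOTCH2. For HES1 it went from 0.31 to 0.14. It stayed at 0.10 for NOTCH1 and rose from 0.15 to 0.17 for MAML3. With the replicate block, NOTCH2 passed the test (-0.44, adjusted p = 0.037 from limma), NOTCH1 did not (0.42, adjusted p = 0.0514), and 1 Notch gene and 1 pathway gene, DLL4 (-0.68, adjusted p = 0.032), were lower, where 6.03% of all genes were. In the same fit 2 Notch and 4 pathway genes were higher, where 10.5% of all genes were. Genes under 1 FPKM were too low for the scale used to show a moderate change.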
